A study of Daucus carota subsp. sativus with 2 samples.

Results

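Lipoxygenases and allene oxide enzymes are the enzymes at the head of the plant oxylipin route, and their transcripts were read here in the roots of an orange and a red carrot. The members were every row of the deposited count table whose protein name begins with lipoxygenase or contains allene oxide. The rule found 11 of 19838 transcript rows, which were 10 lipoxygenases and 1 allene oxide synthase, AOS2; the same search returned 0 rows named allene oxide cyclase. Only 3717 rows (18.7%) had a protein name other than uncharacterized, so further members may sit among the unnamed rows.

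The orange library came from root of the carrot labelled Hybrid (Orange), which the series title calls modified, and the red library from root of the carrot labelled Delhi (Red), which the title calls wild. Both are Daucus carota subsp. sativus, both were left untreated, and RNA was poly(A)-selected. There was 1 library for each variety, with 7432754 counts in orange and 11310179 in red; plant age, growth and any pooling of plants are not given in the labels. No difference below therefore has a replicate check, and every interval covers counting error only, in 2 libraries whose variety and tissue sample cannot be told apart.

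Lipoxygenases add oxygen to linoleic and linolenic acid, the polyunsaturated fatty acids of plant membranes, and make fatty acid hydroperoxides. Plant lipoxygenases differ in which carbon they oxygenate, and those that act inside the plastid feed allene oxide synthase, a cytochrome P450 that turns the hydroperoxide into an unstable allene oxide. A cyclase then makes oxophytodienoic acid, which a reductase and peroxisomal beta-oxidation convert to jasmonic acid, the wound and defence hormone. Lipoxygenase products also include wound-induced leaf volatiles and other defence compounds, and the deposited names do not say to which type each of the 10 rows belongs.

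Taken as a group, these transcripts were less abundant in the orange library. The 11 members held 9746 counts in orange, or 0.131% of the library (exact 95% interval 0.129 to 0.134), and 44202 counts in red, or 0.391% (0.387 to 0.394). After division by median-of-ratios size factors, which put both libraries on a common scale, the sum was 3.98-fold lower in orange (3.90 to 4.07). In bulk RNA such as this, fewer cells of a type and less RNA per cell cannot be told apart. Counts also grow with transcript length, which the table does not give, so levels of different members are compared only as reads.

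A transcript was counted as measured when its mean scaled count was at least 10, and 9 of the 11 members passed, 8 of them with a scaled count of at least 10 in both libraries. A member was counted as different when its log2 fold reached 2-fold, after 0.5 was added to each scaled count, and its counting interval left out equality. On that rule 6 members were lower in orange, where 30.4% of all 14868 measured transcripts were, and 1 was higher in orange, where 24.4% were. The remaining 2 measured members differed by less than 2-fold. At 4-fold, 5 members were lower in orange, against 19.6% of measured transcripts, and 0 were higher, against 12.4%. Beyond 10-fold, 4 members were lower in orange against a background of 10.9%, and beyond 100-fold 2 members were, against 2.68%; none (0) was higher in orange by 10-fold, where 6.36% of measured transcripts were. The median log2 fold was -2.73 over the 9 measured members, beside -0.06 over all measured transcripts. Over all 11 the middle member is a row with 0 counts in orange and 2 in red, so that median follows the pseudocount, at -2.25 with 0.5 added and -1.52 with 1 added.

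**Figure D1:**
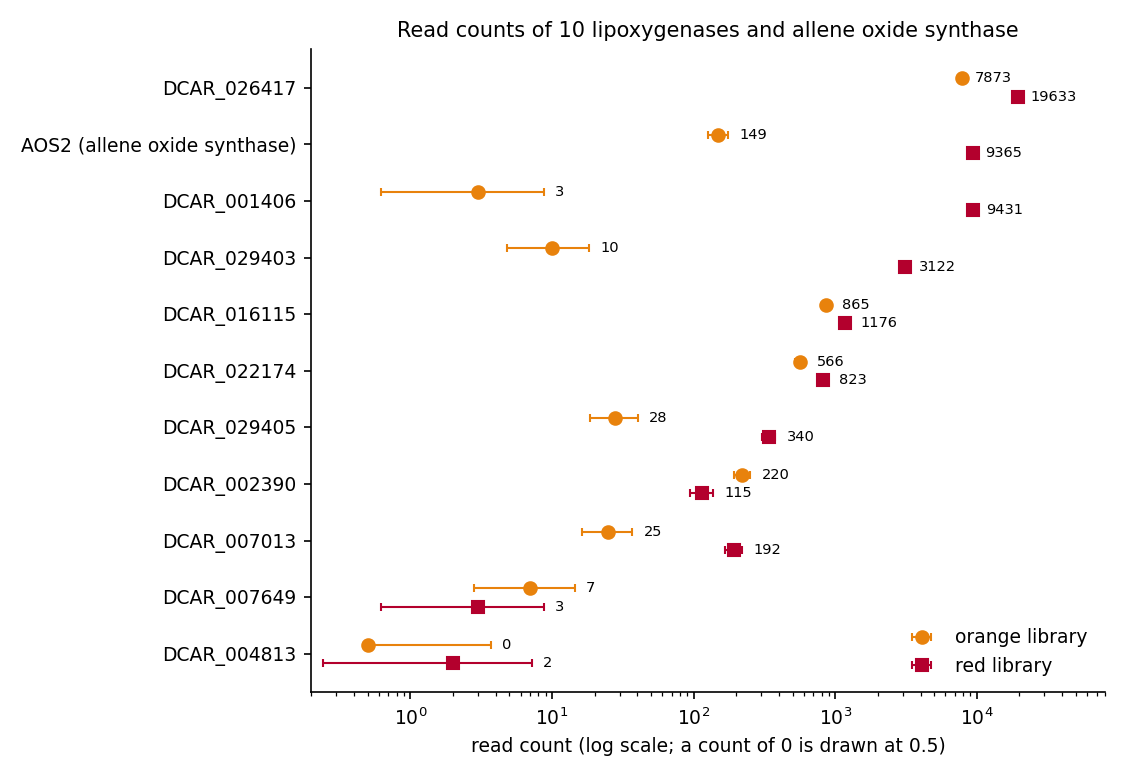
Read counts of the 11 members on a log axis, orange library (circles) above red library (squares), with exact Poisson 95% intervals as bars. DCAR_001406, DCAR_029403 and AOS2 had 3, 10 and 149 reads in orange and 9431, 3122 and 9365 in red, while DCAR_016115 and DCAR_022174 lay close together.

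The most abundant member was the same lipoxygenase in both libraries, DCAR_026417. It had 7873 counts in orange (exact Poisson interval 7700 to 8049) and 19633 in red (19359 to 19910), and was 2.19-fold lower in orange (2.13 to 2.25). It ranked 80 by read count among all transcripts in orange and 61 in red, so it was among the most heavily read transcripts of both roots. Its ratio lay just past the 2-fold threshold: 28.6% of all measured transcripts had a log2 fold at or below its value of -1.13, and with libraries scaled to their total counts its log2 fold was -0.71, under 2-fold.

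How much of the family this single lipoxygenase made up also differed. DCAR_026417 held 80.8% of the counts of the 11 members in orange (79.99 to 81.6) and 44.4% in red (43.95 to 44.9). Over lipoxygenases alone its share was 82.0% in orange and 56.4% in red. These shares do not depend on how the libraries are scaled. The second most abundant member was the lipoxygenase DCAR_016115 in orange, with 8.88% of the family, and the lipoxygenase DCAR_001406 in red, with 21.3%. Next came the lipoxygenase DCAR_022174 in orange, at 5.81%, and AOS2 in red, at 21.2%; the intervals of DCAR_001406 (20.96 to 21.7) and AOS2 (20.8 to 21.6) in red overlapped, so their order there is not resolved.

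**Figure D2:**
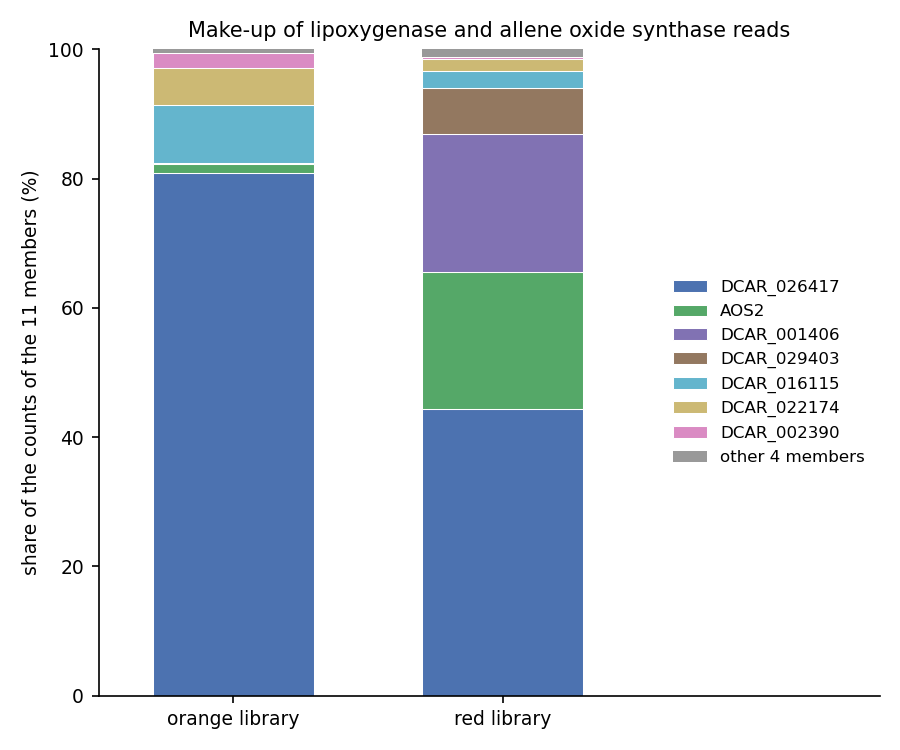
Share of the counts of the 11 members held by each, in percent, for the orange library (left) and the red library (right); members under 1% in both libraries are pooled. DCAR_026417 fills 80.8% of the orange bar and 44.4% of the red bar, and AOS2 and DCAR_001406 each fill over 21% of the red bar.

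Allene oxide synthase, which turns the hydroperoxide into an allene oxide, was sparsely read in orange. In red it had nearly as many reads as the second lipoxygenase. The deposited name does not say which hydroperoxide the enzyme of this row uses. AOS2 had 149 counts in orange (126 to 175) and 9365 in red (9176 to 9557). The ratio was 55.2-fold lower in orange (47.0 to 65.3), and 4.34% of measured transcripts had a log2 fold at or below its value of -5.78. It ranked 7278 by read count in orange and 154 in red. Of the 154 transcripts with at least as many reads in red, 22 (14.3%), AOS2 included, had 149 or fewer in orange. For each AOS2 read the orange library held many more lipoxygenase reads: AOS2 was 1.53% of the family in orange (1.29 to 1.79) and 21.2% in red.

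Among the lipoxygenases, DCAR_001406 had the lowest orange-to-red ratio. It had 3 counts in orange (0.619 to 8.77) and 9431 in red (9242 to 9623). Had it taken the same share of reads in orange as in red, the orange library would have held 6198. With so few orange reads the ratio is imprecise, 2761-fold lower in orange with an interval of 944 to 13391. Only 16 of the 14868 measured transcripts, itself among them, had a log2 fold at or below its value of -11.22. Of the 151 transcripts with at least as many reads in red, 3 (1.99%), DCAR_001406 included, had 3 or fewer in orange. It passed the filter on low counts through its red reads alone.

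DCAR_029403 followed the same pattern at a lower level. It had 10 counts in orange (4.80 to 18.4) and 3122 in red (3013 to 3233), which is 274-fold lower in orange (149 to 572). Of the 629 transcripts with at least as many reads in red, 25 (3.97%), DCAR_029403 included, had 10 or fewer in orange. The lipoxygenase DCAR_029405, whose transcript identifier directly follows that of DCAR_029403 in the authors' numbering, had 28 counts in orange (18.6 to 40.5) and 340 in red (305 to 378), 10.7-fold lower in orange (7.25 to 16.3). Similar copies can exchange reads in counting. How alike these sequences are was not measured here, so their sum is given beside the single values. Together they had 38 counts in orange and 3462 in red, 80.0-fold lower in orange (58.2 to 113). Most of the summed red reads were those of DCAR_029403.

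The lipoxygenase DCAR_007013 was a low-abundance member with the same direction. It had 25 counts in orange (16.2 to 36.9) and 192 in red (166 to 221), 6.75-fold lower in orange (4.43 to 10.7). Its log2 fold of -2.73 was the median of the 9 measured members.

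**Figure D3:**
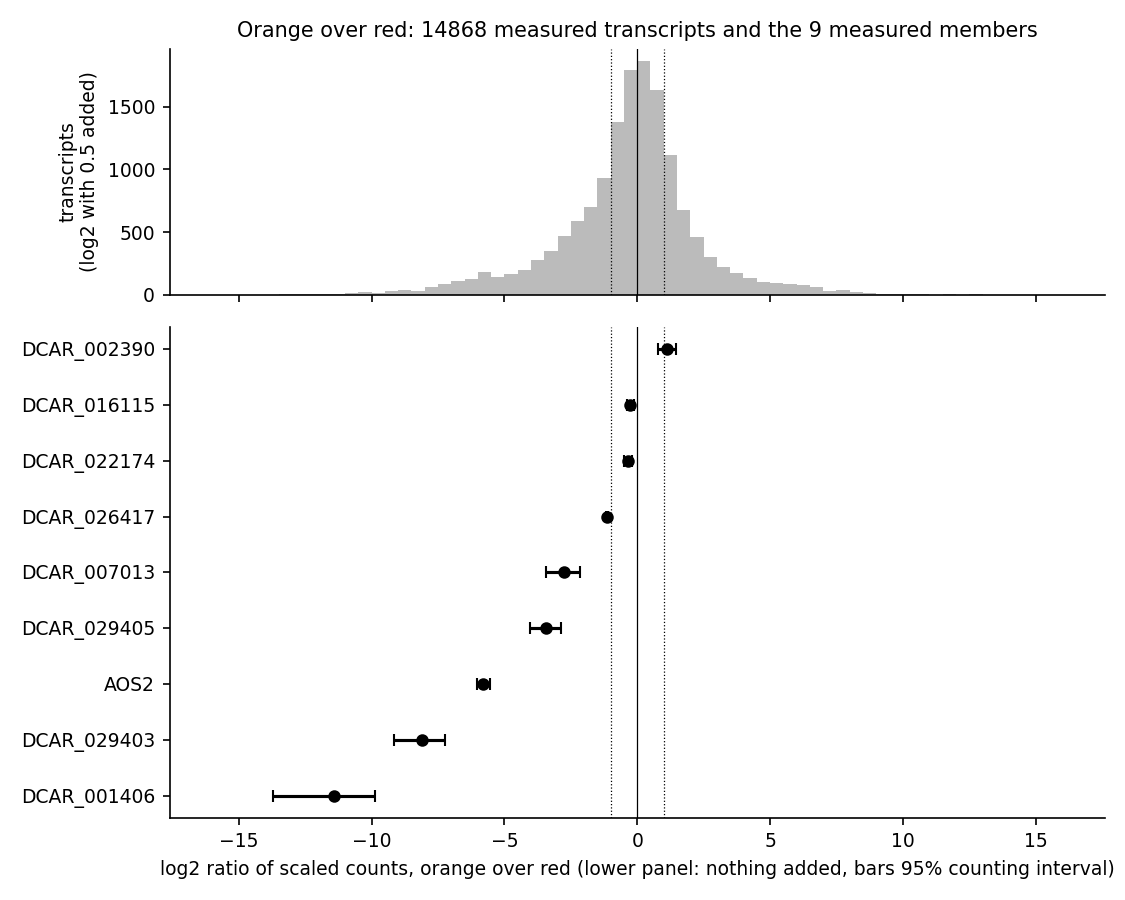
Upper panel: number of measured transcripts by log2 fold, orange over red; lower panel: the 9 measured members, with 95% counting intervals; dotted lines mark 2-fold. The members run from DCAR_002390, the only one at least 2-fold higher in orange, to DCAR_001406, in the far left tail of all 14868 transcripts.

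A pair of mid-abundance lipoxygenases was close between the varieties. DCAR_016115 had 865 counts in orange (808 to 925) and 1176 in red (1110 to 1245), 1.19-fold lower in orange (1.09 to 1.31). DCAR_022174 had 566 counts in orange (520 to 615) and 823 in red (768 to 881), 1.28-fold lower in orange (1.15 to 1.42). Both stood near the middle of all measured transcripts, of which 45.3% and 43.1% had log2 folds at or below theirs. The small differences change sign with the scaling: on total counts the log2 fold was 0.16 for DCAR_016115 and 0.07 for DCAR_022174. Summed, the pair took 0.0193% of the orange library (0.0183 to 0.0203) and 0.0177% of the red library (0.0169 to 0.0185).

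The lipoxygenase DCAR_002390 ran the other way. It had 220 counts in orange (192 to 251) and 115 in red (94.9 to 138), 2.18-fold higher in orange (1.73 to 2.75). The lower bound is under 2-fold, and 22.3% of measured transcripts had a log2 fold at or above its value of 1.12. It was the fourth member by read count in orange, above AOS2, and the ninth in red.

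The other lipoxygenases were close to unread. DCAR_007649 had 7 counts in orange and 3 in red, and the interval of its orange-to-red ratio, 0.607 to 15.9, included equality. DCAR_004813 had 0 counts in orange and 2 in red, both below the floor of 3 counts, so no ratio is given. A difference in either was not detectable at this depth.

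The gap between the libraries was carried by few members. Lipoxygenase reads summed to 9597 in orange and 34837 in red, 3.19-fold lower in orange (3.12 to 3.26). Of that gap in median-of-ratios scaled counts, DCAR_026417 made up 44.6%, DCAR_001406 39.4% and DCAR_029403 13.0%. The order of DCAR_026417 and DCAR_001406 depended on the scaling, and with total-count scaling DCAR_001406 made up the larger part. At its red share of reads, DCAR_026417 would have had 12902 counts in orange, where it had 7873. DCAR_001406 would have had 6198, where it had 3. Without DCAR_026417, the remaining lipoxygenases were 7.75-fold lower in orange (7.37 to 8.15), and without DCAR_001406 and DCAR_029403 the sum was 2.04-fold lower (1.99 to 2.09). The most abundant lipoxygenase and the members with 3 and 10 orange reads together made up nearly all of the gap.

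The authors' deposited table listed 6 members as down in orange, 2 as up, 2 as neutral and 1 as read in red only. The authors' normalised counts equal the scaled counts used here, so their folds repeat the ratios above and are no separate check. Of all transcripts, that table listed 23.0% as down, 20.5% as up, 37.1% as neutral and 11.3% as read in red only. In it, 2 members appeared in a list of 875 transcripts (4.41% of all transcripts) at a p-value of 0.05 or less. These were DCAR_029403 (p = 0.00113, adjusted p = 0.132 in the authors' deposited table) and DCAR_001406 (p = 0.00200, adjusted p = 0.173 in the authors' deposited table). AOS2 had p = 0.0514 and adjusted p = 0.834 in the authors' deposited table. None (0) of the members was among the 6 transcripts in the authors' deposited table at an adjusted p-value of 0.05 or less. DCAR_007649, listed there as up, is the row with 7 and 3 counts.

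Steps on either side of the family were searched for by name, and their members went both ways. For comparison with each list below, 30.4% of all measured transcripts were at least 2-fold lower in orange and 24.4% were higher. Of 10 fatty acid desaturase rows, the enzymes that put double bonds into fatty acids, 6 were measured. The list is not limited to the enzymes that make linoleic and linolenic acid. Of the 6 measured rows, 1 was at least 2-fold lower in orange, 2 were higher and 3 were under 2-fold, with a median log2 fold of 0.25. Summed desaturase counts were 1.52-fold lower in orange (1.46 to 1.58). The most abundant, the acyl-carrier-protein desaturase DCAR_031597, which puts the first double bond into plastid fatty acids, had 2694 counts in orange and 5699 in red (1.86-fold lower in orange). Its relative DCAR_002144 had 853 counts in orange and 1161 in red, and DCAR_027519 had 204 in orange and 0 in red, at least 77.4-fold higher in orange at a floor of 3 counts for red (the exact interval begins at 62.4-fold). A FAD2-like desaturase, LOC109021930, of the type that makes linoleic acid, had 35 counts in orange and 9 in red, 4.43-fold higher in orange (2.09 to 10.5). A row named fatty acid desaturase/hydroxylase, with no gene name, had 119 counts in orange and 475 in red, 3.51-fold lower in orange. The desaturase named COLO4_33987 had 521 counts in orange and 351 in red for its most abundant row and at most 10 counts in either library for its other rows, and both FAD2-1 rows had 5 counts or fewer.

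Patatins are acyl hydrolases that release fatty acids from membrane lipids. Of 13 patatin rows 10 were measured, of which 3 were at least 2-fold lower in orange, 6 were higher and 1 was under 2-fold, with a median log2 fold of 1.37. DCAR_003805 had 546 counts in orange and 20 in red, 31.1-fold higher in orange (19.9 to 51.3), and DCAR_001339 had 332 and 3, 126-fold higher (42.7 to 614). DCAR_006443 had 487 counts in orange and 95 in red, and DCAR_007798 had 250 and 117. Against these, the patatin listed as 101260225 had 0 counts in orange and 894 in red, at least 262-fold lower in orange at a floor of 3 counts for orange (the exact interval begins at 212-fold), and DCAR_004205 had 252 and 615, 2.14-fold lower. Summed patatin counts were 1.24-fold higher in orange (1.17 to 1.32).

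Acyl-CoA oxidases carry out the first step of the peroxisomal beta-oxidation that shortens the jasmonate precursor, and also of general fatty acid breakdown. The list for oxophytodienoate reduction and beta-oxidation held only acyl-CoA oxidases, so the reductase is not represented. All 6 rows were measured, with 2 at least 2-fold lower in orange, 2 higher and 2 under 2-fold. Summed acyl-CoA oxidase counts were 1.18-fold lower in orange (1.11 to 1.26), but their share of all counts was 0.0217% in orange and 0.0192% in red. DCAR_027764 had 161 counts in orange and 475 in red, and DCAR_021268 had 182 and 445; with total-count scaling neither reached 2-fold. DCAR_014237 had 160 counts in orange and 23 in red, 7.92-fold higher in orange (5.10 to 12.9), and DCAR_010695 had 22 and 6. DCAR_011507, the most abundant, had 811 counts in orange and 819 in red, and COLO4_05185 had 278 and 407. The search returned 0 rows named for jasmonate conjugation, perception or response. The search for other enzymes that use fatty acid hydroperoxides returned 1, the P450 CYP749A22-like, whose name only shares its opening characters with that family; it had 33 counts in orange and 31 in red.

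**Figure D4:**
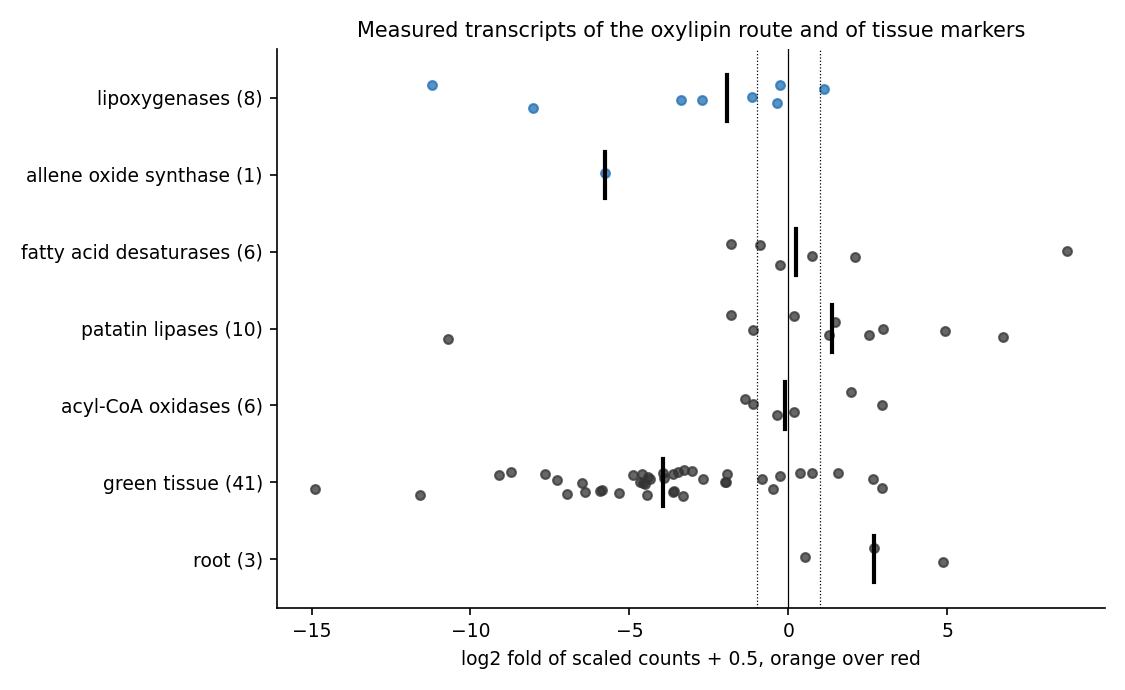
Log2 fold, orange over red, of each measured transcript in the family (blue) and in lists matched by name (grey), with the number of transcripts in brackets and a bar at the median. The desaturase, patatin and acyl-CoA oxidase lists straddle 0, while AOS2 and most lipoxygenases lie to the left, on the same side as 36 of 41 green tissue transcripts.

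Transcripts of green tissue were lower in the same library as AOS2 and most lipoxygenases. Of 45 rows named for chlorophyll a-b binding proteins, photosystem subunits and the RuBisCO small chain, 41 were measured, and 33 were at least 2-fold lower in orange and 3 higher. They held 23302 counts in orange (0.314% of the library) and 484275 in red (4.28%), with a median log2 fold of -3.95. In orange 4 of the 45 rows were at 0, the RuBisCO small chain RBCS with 16192 counts in red among them, and in red none (0) was. A second RuBisCO small chain row, MIMGU_mgv1a015027mg, had 172 counts in orange and 25 in red, 7.83-fold higher in orange (5.13 to 12.4). Rows matched by name to a root list were few, and 0 were named for Casparian strip or root cap proteins. Whether the matched rows mark root tissue was not tested. Of the major allergen Dau c 1, 1 isoform had 2776 counts in orange and 107 in red. Another row, also named pathogenesis-related protein Gea20, had 637 and 112. The ROOT HAIR DEFECTIVE 3 homologue DCAR_026383 had 1431 and 1143. Its relative DCAR_004314 had 1 count in orange and 0 in red. The part of green tissue in the lower orange levels of AOS2, DCAR_001406 and DCAR_029403 was not tested.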

How the data were processed

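The authors deposited a raw read count for each transcript row in each library, alongside a protein and a gene name, per the file headers. Their deposited normalised counts are a signal found here to equal the count times 1 constant per library, 1.07 for orange and 0.937 for red. The authors' deposited comparison tables give a fold (the ratio of orange to red normalised counts), its log2 and, for each row, a p-value with its adjusted form. The sheets' description names the comparison in the other order, and the quotient of the columns was used. HISAT, HTSeq, DESeq, cutadapt and FastQC were used, per the submitters' processing notes. Not given in the sources used here are their roles and versions, the genome build, strandedness and the handling of dispersion without replicates.

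Counts were divided here by median-of-ratios size factors over transcripts read in both libraries (0.937 for orange, 1.07 for red). Log2 folds put orange over red after adding a pseudocount of 0.5 to each scaled count; printed ratios have none added. Intervals are 95%: exact Poisson for counts, Clopper-Pearson for shares and, conditional on the sum, for ratios. PCR copies are not independent molecules, so intervals and the floor of 3 counts cover counting error only. No test between varieties was made, as each has 1 library. Rows without a protein name (160, holding 0.827% of orange and 1.27% of red counts) have transcript identifiers and were kept. Named transcripts are all members, all rows of a list of 10 or fewer, and otherwise the 5 of highest mean plus the extremes among those with a mean scaled count of at least 100. Of the green tissue list only part is named. The members and lists were chosen with earlier results of these data known. None (0) of the 11 members matched the RefSeq gene table, so no coordinates or sequences are given. The procedure was tested on simulated counts. Alternatives were total-count scaling, edgeR 4.0.16 TMM factors, no filter or a minimum of 50, a pseudocount of 1, and a 4-fold threshold. Analyses used Python 3.11.15 and scipy 1.17.1.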

Additional observations from a re-analysis of the deposited data

How the results depend on the processing

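Total-count scaling moves log2 ratios by 0.42 toward orange, and by less in rows with few counts, where the pseudocount weighs. The summed lipoxygenases then had a log2 fold of -1.25, against -1.67, and AOS2 -5.36, against -5.78. The count of members at least 2-fold lower was 5 of 9, against 24.6% of measured transcripts, with DCAR_026417 leaving it, and 33.7% of measured transcripts were then higher in orange. TMM factors moved log2 folds by -0.0016. At a 4-fold threshold 5 members were lower and 0 higher in orange. Without DCAR_026417 the lipoxygenase sum was at -2.95. The following were chosen after seeing the data: the sum was at -1.22 without DCAR_001406 and at -1.03 without it and DCAR_029403. The share of DCAR_026417 over lipoxygenases alone was 82.0% in orange and 56.4% in red. In the lists, the acyl-CoA oxidases lower in orange numbered 0 with total-count scaling and at 4-fold. Those higher in orange numbered 1 at 4-fold and with a minimum of 50. The desaturases higher in orange numbered 4 without the filter on low counts and 1 with a minimum of 50. At 4-fold the desaturases lower in orange numbered 0 and the patatins lower in orange 1. No paired analysis was possible because each variety has 1 library, and no replicate could be left out.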
